A study of Mus musculus with 10 samples.

Results

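The 7 genes examined encode the enzymes that make and break down glutamate, proline and aspartate: Aldh18a1, Pycr1, Prodh, Glud1, Glul, Got1 and Got2. They were picked by gene symbol from the 43346 genes of the raw count table, and all 7 of 7 had enough reads to enter each statistical comparison. O9-1 cells served as the model, a line of mouse cranial neural crest origin, and the neural crest is the embryonic cell population that forms much of the facial skeleton. RNA sequencing covered 10 libraries: 4 wildtype samples, described in the study's methods as biologically independent, 3 Kat5 knockout (ko) clones and 3 Ep400 ko clones. *Kat5* encodes the histone acetyltransferase and *Ep400* the ATP-dependent remodeling subunit of the Tip60/Ep400 chromatin complex, so the comparisons ask what the loss of either subunit does to the transcripts of these enzymes. Both genes were edited with CRISPR/Cas9, and edited cells were sorted on a co-transfected EGFP marker and grown from single cells, so each knockout library stands for 1 clone. The line is tetraploid, and per the study's genotyping the clones Ep400/2 and Ep400/3 kept in-frame deletions in part of their Ep400 alleles. Wildtype libraries came from the unedited line, which the study does not describe as grown from single cells, and served as the reference for both knockouts.

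Glutamate sits at the centre of this small network. Proline is made from glutamate in mitochondria through the intermediate pyrroline-5-carboxylate (P5C) and is returned to glutamate by the reverse oxidation, while aspartate is made by moving the amino group of glutamate onto oxaloacetate. Proline is abundant in collagen, and aspartate supplies nucleotide and asparagine synthesis and the malate-aspartate shuttle that carries reducing equivalents into mitochondria.

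Sequencing depth lay between 30968945 and 48301792 counts per library. The wildtype libraries spanned 30968945 to 44776201 counts, the Kat5 ko clones 32709984 to 48301792 and the Ep400 ko clones 32950540 to 41231337, so the groups overlapped in depth. Levels are given as CPM, read counts brought to a common library total, which was scaled over all 10 libraries by the trimmed mean of M-values (TMM), and means are followed by the SD. Transcripts of *Kat5* were at 53.8 ± 3.98 CPM in wildtype (n = 4) and at 22.9, 16.4 and 23.2 CPM in Kat5/1, Kat5/2 and Kat5/3. *Ep400* was at 157 to 165 CPM in wildtype and at 54.7, 61.4 and 59.7 CPM in the 3 Ep400 ko clones, so each targeted gene was low in its own clones. Of 14 markers of neural crest mesenchyme, 11 were at 1 CPM or more in every library, whereas *Sox10* and *Foxd3*, which mark early crest cells, were at 0 in all libraries. The summed level of the mesenchyme markers was 1661 to 1993 CPM in wildtype, 1660 to 1901 CPM in the Kat5 ko clones and 2506 to 3834 CPM in the Ep400 ko clones. The markers did not move together in Ep400 ko. *Prrx1* was at 882 to 2158 CPM (wildtype 651 to 952) and *Pdgfra* at 520 to 648 CPM (wildtype 105 to 136). *Sox9*, at 40.7 to 56.2 CPM (wildtype 57.9 to 82.6), and *Snai1*, at 14.2 to 16.9 CPM (wildtype 17.2 to 24.1), were below every wildtype library. Markers of astrocytes (3 of 3), neurons (3 of 3), skeletal muscle (2 of 2), hepatocytes (2 of 2) and blood (1 of 1) stayed under 1 CPM in all libraries. The summed level of 4 epithelial markers was 1.62 to 4.70 CPM in wildtype, 0.309 to 0.827 CPM in the Kat5 ko clones and 0.516 to 0.921 CPM in the Ep400 ko clones. For 2 endothelial markers the sums were 0.867 to 1.61, 0.198 to 0.551 and 0.0469 to 0.274 CPM in the same order of groups. No epithelial or endothelial marker was at 0 in all libraries, and the part of these shifts in the results was not tested. In such bulk samples, fewer cells of a kind and less RNA per cell cannot be told apart, and a change in the total RNA of a cell is not visible.

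The choice of libraries decided many calls in the Kat5 ko comparison. With all 3 Kat5 ko clones, 67 of 13434 genes passed an adjusted p of 0.05 in edgeR's quasi-likelihood test against wildtype. Without Kat5/1 the number was 2651 of 13703, without Kat5/2 it was 36, without Kat5/3 it was 4, and without a wildtype library it was 1 to 58. In Ep400 ko against Kat5 ko, 994 of 13587 genes passed with all clones and 2537 of 14095 without Kat5/1. Results that turn on Kat5/1 are therefore given with and without it.

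Before any knockout, the enzymes differed widely in level. Per transcript length, in TPM (CPM-like values computed from the counts and the exonic lengths of the annotation), wildtype cells held most of *Glud1*, which encodes the mitochondrial glutamate dehydrogenase, at 321 ± 47.2 TPM (n = 4). *Got2*, the mitochondrial aspartate aminotransferase, followed with 181 ± 22.1 TPM and *Aldh18a1*, the P5C synthase that opens proline synthesis, with 171 ± 34.5 TPM. The wildtype ranges of these neighbours overlapped, with 158 to 210 TPM for *Got2* and 145 to 221 TPM for *Aldh18a1*. *Got1*, the cytosolic aspartate aminotransferase, was at 107 ± 17.1 TPM and below all values of both. *Glul*, the glutamine synthetase, had 47.6 ± 7.20 TPM, and *Pycr1*, a mitochondrial P5C reductase that completes proline synthesis, had 19.5 ± 0.859 TPM. *Prodh*, the proline dehydrogenase that starts proline breakdown, was lowest with 6.79 ± 1.96 TPM. From *Got1* downwards, no neighbours in this order overlapped in their wildtype ranges.

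In the Ep400 ko clones, the order of the levels was different. *Glud1* was at 614 ± 118 TPM (n = 3), *Got2* at 117 ± 9.81 TPM and *Aldh18a1* at 42.8 ± 15.3 TPM. *Aldh18a1* thereby came below *Got1*, at 104 ± 30.1 TPM, and below *Glul*, at 70.9 ± 7.13 TPM, with no overlap between the 3 clones' values of *Aldh18a1* (30.1 to 59.8 TPM) and those of either gene. In the Kat5 ko clones, *Aldh18a1* was at 89.8 ± 19.3 TPM and overlapped with *Got1* at 97.9 ± 23.2 TPM.

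The sequences directly before the transcription starts are shown for the proline synthesis genes, *Aldh18a1* and *Pycr1*, which were below wildtype in all clones, and for *Got1*, which shares a motif with *Pycr1*. Each is the stretch of 250 bases that precedes the RefSeq start (GRCm38.p6), written 5′ to 3′ on the gene's strand.

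Aldh18a1, chr19:40588464-40588713, minus strand: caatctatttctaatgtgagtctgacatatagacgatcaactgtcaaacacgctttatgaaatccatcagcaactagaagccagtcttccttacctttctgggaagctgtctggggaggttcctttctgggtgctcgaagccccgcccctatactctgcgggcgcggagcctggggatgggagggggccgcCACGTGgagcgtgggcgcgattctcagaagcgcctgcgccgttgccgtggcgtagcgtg

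Pycr1, chr11:120643749-120643998, minus strand: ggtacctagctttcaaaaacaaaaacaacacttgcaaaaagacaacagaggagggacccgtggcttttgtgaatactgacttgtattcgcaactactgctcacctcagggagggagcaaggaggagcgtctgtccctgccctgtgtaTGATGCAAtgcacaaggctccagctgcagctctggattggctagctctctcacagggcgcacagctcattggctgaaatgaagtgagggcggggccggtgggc

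Got1, chr19:43524606-43524855, minus strand: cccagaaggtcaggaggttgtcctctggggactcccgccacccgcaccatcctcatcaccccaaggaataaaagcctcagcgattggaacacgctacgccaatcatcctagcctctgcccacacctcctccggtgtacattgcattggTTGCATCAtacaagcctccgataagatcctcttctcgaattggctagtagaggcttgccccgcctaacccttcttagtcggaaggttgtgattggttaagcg

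Capitals mark the matches to 3 motifs that were searched on both strands. In *Pycr1*, they mark TGATGCAA, a match to TGATGNAA, the core of the C/EBP-ATF response element that is bound by the stress-responsive factor ATF4 with a C/EBP partner. It lies 103 to 96 bases before the start. In *Got1*, the capitals TTGCATCA are the same motif read on the opposite strand, 102 to 95 bases before the start. TGATGNAA occurred in 3.45% of 32851 promoter windows of this length and, among the 34 related pathway genes with such a window, only in *Asns*. In *Aldh18a1*, the capitals mark the E-box CACGTG at 59 to 54 bases before the start, which was present in 6.02% of all windows. The cAMP response element TGACGTCA, found in 1.55% of windows, was not among the letters of any of the 7 windows. None of the 3 motifs was found in *Prodh*, *Glud1*, *Glul* or *Got2*. A match is a stretch of letters and no measured binding site, and a link between these letters and the levels was not tested.

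Both proline synthesis genes fell in the Ep400 ko clones, and in the Kat5 ko clones both were below wildtype in every clone but missed the threshold. *Aldh18a1* (chr19:40550257-40588463, minus strand, GRCm38) stood at 196, 188, 272 and 198 CPM in the wildtype libraries. It was at 92.2, 138 and 105 CPM in Kat5/1, Kat5/2 and Kat5/3 and at 74.4, 40.6 and 45.1 CPM in Ep400/1, Ep400/2 and Ep400/3. All 3 clones of either knockout lay below every wildtype library, and the Ep400 ko clones also lay below every Kat5 ko clone. The mean fell from 214 ± 39.0 CPM in wildtype to 53.4 ± 18.3 CPM in the Ep400 ko clones, 25.0% of wildtype (log2-fold change -2.0, standard error 0.25, adjusted p = 0.0037 by edgeR's quasi-likelihood test). In the Kat5 ko clones the mean was 112 ± 23.9 CPM, 52.4% of wildtype, the log2-fold change -0.96, its standard error 0.19 and the adjusted p 0.069, which misses the threshold of 0.05. Without Kat5/1, the value was -0.84 and the adjusted p 0.0289. Of the 7 fits that each left out 1 library, only 1 passed, with adjusted p from 0.0289 to 0.195. Ep400 ko compared directly with Kat5 ko was at -1.09 on the log2 scale (standard error 0.29, adjusted p = 0.0569), and at -1.21 without Kat5/1 (adjusted p = 0.0446). This difference passed in 2 of 6 fits that each left out 1 library, with adjusted p from 0.0446 to 0.16.

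*Aldh18a1* lies on chromosome 19, whose median gene differed from the wildtype mean in these clones, as did those of other chromosomes. Relative to the wildtype mean, the median gene of chromosome 19 was at -0.088, -0.20 and -0.31 on the log2 scale in the 3 Kat5 ko clones and at 0.29, 0.27 and 0.24 in the 3 Ep400 ko clones. With each library's chromosome median taken out, the log2-fold change of *Aldh18a1* was -2.28 in Ep400 ko (adjusted p = 0.00304) and -0.76 in Kat5 ko (adjusted p = 0.0952). The same correction gave -1.56 for Ep400 ko against Kat5 ko, with an adjusted p of 0.0351.

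*Pycr1* (chr11:120635712-120643769, minus strand) was even across the wildtype libraries, with 24.7, 24.1, 22 and 23.6 CPM. The Kat5 ko clones had 13.6, 8.21 and 7.18 CPM and the Ep400 ko clones 9.45, 4.78 and 8.16 CPM. Every clone was below every wildtype library, while the ranges of the knockouts overlapped. In Ep400 ko, *Pycr1* fell from 23.6 ± 1.15 to 7.47 ± 2.41 CPM, 31.6% of wildtype (log2-fold change -1.66, standard error 0.25, adjusted p = 0.00633). The median gene of chromosome 11 was at -0.17, -0.19 and -0.20 in the 3 Ep400 ko clones. With the chromosome medians taken out, the edgeR log2-fold change of *Pycr1* was -1.48 (adjusted p = 0.00912). In Kat5 ko, the mean was 9.67 ± 3.46 CPM or 41.0% of wildtype, the log2-fold change -1.31 (standard error 0.25) and the adjusted p 0.063. Kat5/1 was the highest of its group, and without it the Kat5 ko value was -1.65 with an adjusted p of 0.00375. Of the 7 fits that each left out 1 library, only 1 passed, with adjusted p from 0.00375 to 0.193. A difference between the knockouts was not detected for *Pycr1* (log2-fold change -0.40, standard error 0.41, adjusted p = 0.527). These values rest on 153 to 1068 reads of *Pycr1* per library.

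*Pycrl* (also named Pycr3), which encodes a cytosolic P5C reductase, was more abundant than *Pycr1*. Per length, *Pycrl* was at 146 ± 12.5 TPM in wildtype (n = 4), compared with 19.5 ± 0.859 TPM for *Pycr1*. *Pycrl* was at a log2-fold change of 0.13 in Kat5 ko (adjusted p = 0.762) and fell by 0.57 on the log2 scale in Ep400 ko (adjusted p = 0.0354), a call that held in 2 of 7 fits that each left out 1 library.

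*Prodh* (chr16:18060357-18090203, minus strand), which catalyzes the first oxidation of proline, was low in every Ep400 ko clone and variable among the Kat5 ko clones. It was at 14.6, 23.9, 12.1 and 14.7 CPM in wildtype and at 4.69, 4.59 and 4.83 CPM in the Ep400 ko clones. In the Kat5 ko clones the levels were 7.17, 49.5 and 20.7 CPM, or 43.9, 303 and 127% of the wildtype mean. The Ep400 ko clones were thus close to each other and below every other library, while the Kat5 ko clones were spread on both sides of wildtype. These values rest on 147 to 1501 reads of *Prodh* per library, and the closeness of the Ep400 ko clones was not tested against counting noise. *Prodh* fell to 28.8% of wildtype in Ep400 ko (4.70 ± 0.119 against 16.3 ± 5.20 CPM, log2-fold change -1.80, standard error 0.28, adjusted p = 0.00677). For Kat5 ko, the log2-fold change was 0.62 with a standard error of 0.54 (adjusted p = 0.531). It became -0.25 without Kat5/2 and 1.07 without Kat5/1, with adjusted p of 0.813 and 0.0848. Ep400 ko against Kat5 ko gave -2.47 (standard error 0.63, adjusted p = 0.0549), and -2.92 with 0.0187 without Kat5/1. Of the 6 fits that each left out 1 library, only 1 passed, with adjusted p from 0.0187 to 0.149. *Prodh* overlaps *Dgcr6* on the opposite strand, and the strand setting of the counting is not given in the sources used here. *Dgcr6* spanned 23.5 to 36.5 CPM in wildtype, 21.0 to 33.6 CPM in Kat5 ko and 27.7 to 34.1 CPM in Ep400 ko.

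Of the genes that interconvert glutamate and its neighbours, *Glud1* rose in Ep400 ko and *Glul* did not pass the test in either knockout. *Glud1* (chr14:34310727-34345265, plus strand), whose product links glutamate to the citric acid cycle intermediate 2-oxoglutarate, had 424, 350, 417 and 461 CPM in wildtype and 446, 564 and 434 CPM in Kat5 ko. The Ep400 ko clones had 936, 867 and 596 CPM and were all above the other 7 libraries. *Glud1* rose in Ep400 ko from 413 ± 46.5 to 800 ± 179 CPM, 194% of wildtype (log2-fold change 0.95, standard error 0.19, adjusted p = 0.0156). Without WT/1, the change was 0.96 but the adjusted p was 0.0534. The Kat5 ko value was 0.19 with a standard error of 0.15 (adjusted p = 0.497). The difference between Ep400 ko and Kat5 ko was 0.71 with a standard error of 0.25 and did not pass (adjusted p = 0.1).

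*Glul* (chr1:153899944-153909723, plus strand), which makes glutamine from glutamate and ammonia, was at 40.9, 58.0, 52.4 and 43.0 CPM in wildtype. The Kat5 ko clones had 50.0, 68.0 and 51.1 CPM and overlapped with wildtype. The Ep400 ko clones had 71.9, 86.1 and 60.9 CPM, all above the highest wildtype library, with Ep400/3 only narrowly so. The log2-fold change was 0.59 in Ep400 ko (standard error 0.18, adjusted p = 0.0605) and 0.18 in Kat5 ko (standard error 0.18, adjusted p = 0.577), so neither passed. DESeq2, the tool of the study, gave an adjusted p of 0.036 for *Glul* in Ep400 ko, and leaving out Ep400/3 gave 0.0434 in edgeR.

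Of the aspartate aminotransferases, *Got2* fell in the Ep400 ko clones and *Got1* did not pass the test. *Got2* (chr8:95864134-95888547, minus strand) was at 240, 285, 306 and 243 CPM in wildtype, 265, 378 and 290 CPM in Kat5 ko and 188, 179 and 152 CPM in Ep400 ko. The Ep400 ko clones were below all other libraries. *Got2* fell in Ep400 ko from 269 ± 32.1 to 173 ± 18.8 CPM, 64.6% of wildtype (log2-fold change -0.63, standard error 0.15, adjusted p = 0.0294), and was at 0.18 in Kat5 ko (standard error 0.16, adjusted p = 0.546). This call is the least stable of the 5 in Ep400 ko: it passed in 2 of 7 fits that each left out 1 library, with adjusted p from 0.0385 to 0.0778. With the chromosome medians taken out, it was -0.50 with an adjusted p of 0.0542; the median of chromosome 8 was at -0.21, -0.001 and -0.14 in the 3 Ep400 ko clones. Against Kat5 ko, *Got2* in Ep400 ko was at -0.86 (standard error 0.21, adjusted p = 0.0523), and at -0.97 with 0.0341 without Kat5/1. Of the 6 fits of this comparison that each left out 1 library, only 1 passed, with adjusted p from 0.0341 to 0.16.

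*Got1* (chr19:43499752-43524605, minus strand) was at 79.4, 72.9, 99.4 and 81.5 CPM in wildtype, 56.8, 90.3 and 80.9 CPM in Kat5 ko and 92.3, 105 and 50.9 CPM in Ep400 ko. The 3 groups overlapped. The log2-fold changes were -0.16 in Kat5 ko (standard error 0.19, adjusted p = 0.634) and -0.014 in Ep400 ko (standard error 0.24, adjusted p = 0.974). With the medians of chromosome 19 taken out, the Kat5 ko value was 0.046 (adjusted p = 0.918) and the Ep400 ko value -0.29 (adjusted p = 0.437). The share of *Got1* in the summed TPM of both aminotransferases was 37.1 ± 2.93% in wildtype (n = 4), 31.6 ± 2.86% in Kat5 ko and 46.5 ± 7.02% in Ep400 ko (n = 3 each). In Ep400/1 and Ep400/2 this share was 48.2 and 52.5%, above every wildtype library, and in Ep400/3 it was 38.8%, within the wildtype range of 32.7 to 38.9%. In that clone both genes were below every wildtype library, and a difference between the changes of both genes was not tested. The shares were not corrected for the chromosome medians. In the 3 Ep400 ko clones these were at 0.29, 0.27 and 0.24 for chromosome 19 (*Got1*) and at -0.21, -0.001 and -0.14 for chromosome 8 (*Got2*).

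**Figure D1:**
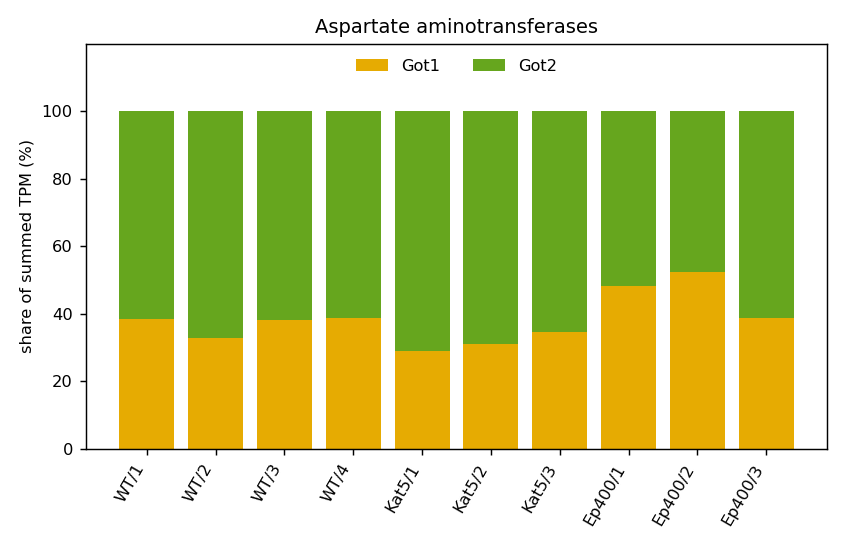
Stacked bars give, for each of the 10 libraries, the share in percent of the summed TPM of both aspartate aminotransferase genes held by Got1 and by Got2. Got1 holds 38.8 to 52.5% in the Ep400 ko clones, 29.0 to 34.7% in the Kat5 ko clones and 32.7 to 38.9% in wildtype. The shares are not corrected for the chromosome medians.

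**Figure D2:**
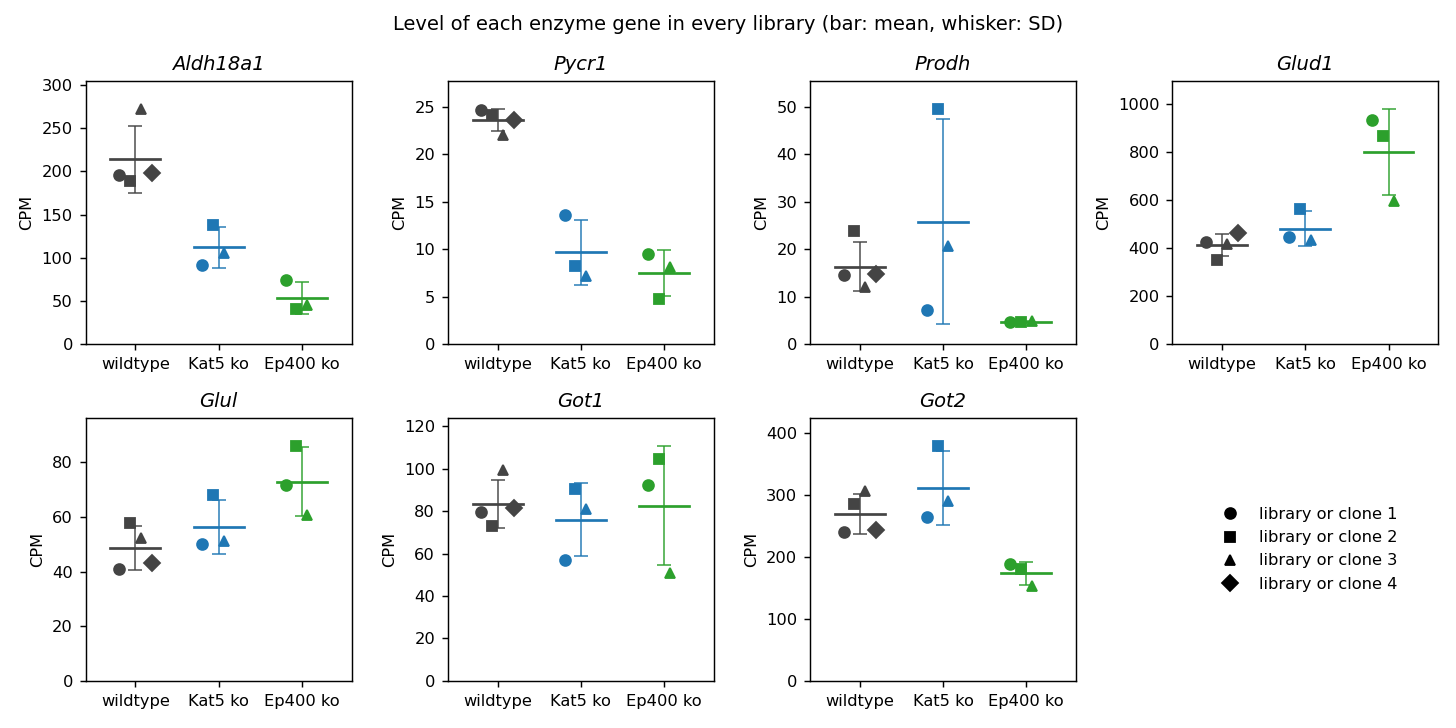
Each panel shows the TMM-scaled CPM of a gene in the 10 libraries, with points for libraries or clones, a bar for the group mean and a whisker for the SD (n = 4 wildtype, 3 Kat5 ko, 3 Ep400 ko). Aldh18a1 and Pycr1 were below wildtype in all 6 knockout clones, whereas Prodh was low at 4.59 to 4.83 CPM in Ep400 ko and scattered from 7.17 to 49.5 CPM in Kat5 ko.

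Counted over the 7 genes, 5 passed the test in Ep400 ko against wildtype. *Aldh18a1*, *Pycr1*, *Prodh* and *Got2* were lower and *Glud1* was higher. Over all 13836 genes tested, 13.9% passed in this comparison. Of the 7, 4 lay below and 2 above every wildtype library in all 3 Ep400 ko clones, whereas 15.0% of all genes lay below and 15.1% above. The median log2-fold change was -0.63 for the 7 genes and 0.043 for all genes. With a further minimum of a 1 log2 unit change and a mean normalized count of 100, 3 of the 7 remained, namely *Aldh18a1*, *Pycr1* and *Prodh*, compared with 6.45% of all genes. The counts for the Ep400 ko clones are read against these percentages and not as a test of the 7 genes as a group.

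In Kat5 ko against wildtype, 0 of the 7 genes passed edgeR's test, where 0.499% of 13434 genes passed. At an unadjusted p of 0.05, 2 of the 7 were past, namely *Aldh18a1* with 0.000924 and *Pycr1* with 0.000657, and DESeq2 called the same 2 genes with adjusted p of 5.58e-04 and 7.54e-05. Over all genes, 22.3% were past the unadjusted p and DESeq2 called 11.0%, so the unadjusted count of the 7 is close to that of genes in general. These 2 were also the only members with all Kat5 ko clones below all wildtype libraries, which held for 10.6% of all genes, and none had all clones above wildtype, which held for 9.13%. With the further minimum on fold and level, 0.387% of all genes remained. The median log2-fold change of the 7 was 0.18, and that of all genes was 3.24e-05.

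The direct comparison of Ep400 ko with Kat5 ko had 0 of 7 past the threshold in edgeR, where 7.32% of 13587 genes passed (2.97% lower and 4.34% higher, and 5.49% with the further minimum on fold and level). At an unadjusted p of 0.05 it had 4, where 32.4% of all genes were past, and DESeq2 called 4 as well, where it called 22.6% of all genes. Although *Prodh*, *Glud1* and *Got2* passed in Ep400 ko and not in Kat5 ko, a difference between the knockouts was therefore not established for them by the main test. *Aldh18a1*, *Prodh* and *Got2* were lower in every Ep400 ko clone than in every Kat5 ko clone, an arrangement found in 18.7% of all genes, and *Glud1* was higher in every clone, as were 19.9% of all genes. Both comparisons with wildtype use the same 4 wildtype libraries, so their values are not independent.

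**Figure D3:**
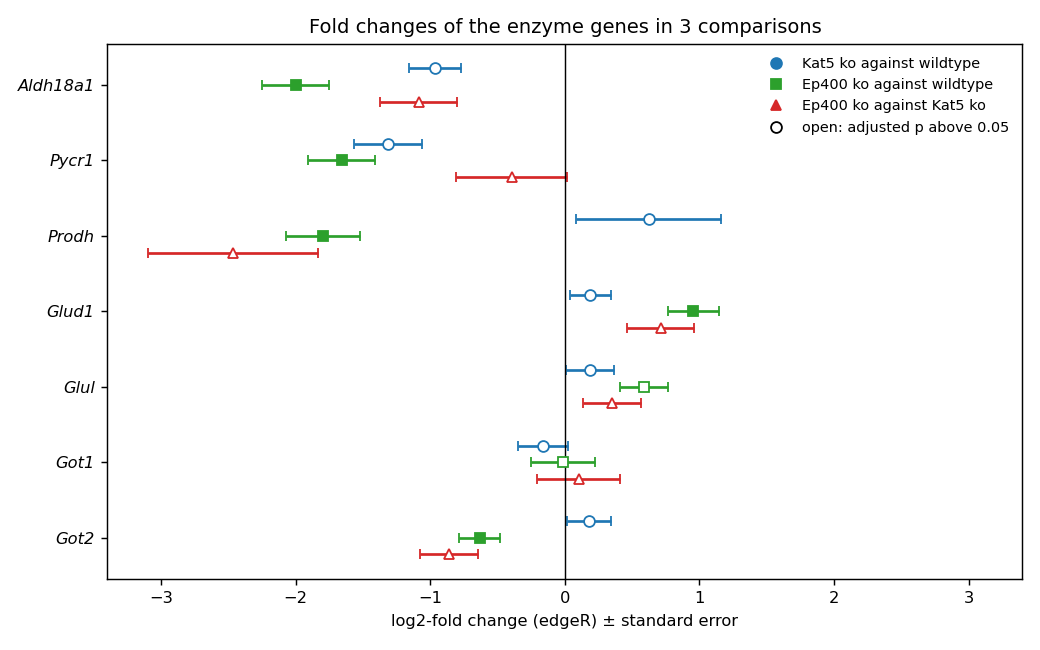
Points are edgeR log2-fold changes of the 7 genes and whiskers their standard errors for Kat5 ko and Ep400 ko against wildtype and for Ep400 ko against Kat5 ko, with filled symbols at an adjusted p of 0.05 or less. The only filled symbols are the 5 of Ep400 ko against wildtype, from -2.0 for Aldh18a1 to 0.95 for Glud1.

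The enzymes around these 7 genes were described with 4 lists holding 47 symbols, of which 46 were in the table and 36 were tested. In Kat5 ko, 3 of the 36 were lower and 0 were higher, and in Ep400 ko 10 were lower and 1 was higher. The percentages over all genes were 0.372% lower in Kat5 ko and 5.76% lower and 8.09% higher in Ep400 ko. The median log2-fold change of the 36 genes was -0.021 in Kat5 ko and -0.28 in Ep400 ko, where 26 of 36 values were negative. Without Kat5/1, 14 of the pathway genes passed in Kat5 ko, and without WT/1, WT/4 or Kat5/3 only 1 did. The number over all genes moved likewise, with 2651 of 13703 without Kat5/1 and 1, 2 and 4 without WT/1, WT/4 and Kat5/3. In Ep400 ko, 8 to 11 pathway genes passed when any 1 library was left out, where 826 to 2016 of all genes did.

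*Asns* and *Gpt2* were lower in both knockouts. *Asns*, the asparagine synthetase that uses aspartate and glutamine, was at 191 to 282 CPM in wildtype, 74.1 to 125 CPM in Kat5 ko and 50.0 to 131 CPM in Ep400 ko. Its log2-fold changes were -1.29 in Kat5 ko (adjusted p = 0.0483) and -1.60 in Ep400 ko (adjusted p = 0.0191), calls that held in 1 and 5 of the 7 fits that each left out 1 library. *Gpt2*, a mitochondrial alanine aminotransferase that also uses glutamate, was at 80.0 to 160 CPM in wildtype, 14.8 to 23.6 CPM in Kat5 ko and 23.1 to 37.5 CPM in Ep400 ko. It changed by -2.64 (adjusted p = 0.0172) and -1.97 (adjusted p = 0.00471), calls that held in 4 and 7 of these fits. No clone reached the wildtype range for either gene.

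Of 9 tested genes of aspartate and asparagine metabolism, 2 were lower in Kat5 ko (*Asns* and *Adssl1*) and 4 in Ep400 ko (*Asns*, *Cad*, *Adsl* and *Asl*). Over all genes, 0.372% were lower in Kat5 ko and 5.76% in Ep400 ko. *Adssl1*, an adenylosuccinate synthase that joins aspartate to IMP, was at 33.7 to 52.1 CPM in wildtype and at 6.37, 5.47 and 6.48 CPM in Kat5 ko (log2-fold change -2.81, adjusted p = 0.00782). In Ep400 ko it was at 23.1, 48.9 and 45.9 CPM (-0.097, adjusted p = 0.837), and the knockouts differed by 2.66 (adjusted p = 0.0203). *Cad*, which starts pyrimidine synthesis from glutamine and aspartate, went the other way, with 230 to 283 CPM in wildtype, 281 to 640 CPM in Kat5 ko and 62.5 to 129 CPM in Ep400 ko. It fell in Ep400 ko (-1.52, adjusted p = 0.0078), was at 0.87 in Kat5 ko (adjusted p = 0.105) and differed between the knockouts by -2.43 (adjusted p = 0.0286). *Adsl*, the adenylosuccinate lyase that acts after the aspartate-using step, showed -0.93 in Ep400 ko (adjusted p = 0.0156), 0.46 in Kat5 ko (adjusted p = 0.32) and a difference of -1.44 (adjusted p = 0.0479). The argininosuccinate lyase gene *Asl* fell in Ep400 ko (-0.88, adjusted p = 0.0268). The differences of *Adssl1*, *Cad* and *Bcat1* (described next) between the knockouts passed in 2 of 6 fits without 1 library and that of *Adsl* in 1 of 6, while the falls of *Adssl1* in Kat5 ko and of *Cad* and *Adsl* in Ep400 ko passed in 7 of 7, and that of *Asl* in 3 of 7.

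Of 13 tested genes of glutamine and glutamate metabolism, 4 were lower and 1 was higher in Ep400 ko, compared with 5.76% and 8.09% of all genes. In Kat5 ko 1 of the 13, *Gpt2*, was lower, compared with 0.372% of all genes. *Bcat1*, the cytosolic branched-chain aminotransferase, which makes glutamate from branched-chain amino acids, was at 108 to 129 CPM in wildtype and at 17.5, 2.19 and 1.64 CPM in the Ep400 ko clones (log2-fold change -4.00, standard error 0.81, adjusted p = 0.0161). In Kat5 ko it was at 65.5, 163 and 187 CPM (0.24, adjusted p = 0.679), and the knockouts differed by -4.29 (adjusted p = 0.0468). *Bcat2*, its mitochondrial counterpart, fell in Ep400 ko by 0.88 on the log2 scale (adjusted p = 0.00822), and *Gfpt1*, which uses glutamine for hexosamine synthesis, by 0.85 (adjusted p = 0.0131). *Gclc*, the catalytic subunit of the ligase that joins glutamate to cysteine for glutathione, was the gene that rose, from 44.0 to 65.1 CPM in wildtype to 180, 206 and 91.1 CPM in Ep400 ko (1.55, adjusted p = 0.00963).

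In Ep400 ko, 1 of 7 proline genes and 1 of 7 shuttle genes passed, a share near the 13.9% of all genes. Of 7 tested genes of proline, ornithine and arginine metabolism, only *Pycrl* passed, in Ep400 ko. *Aldh4a1*, which completes proline breakdown to glutamate, was at -0.63 in Kat5 ko (adjusted p = 0.235) and -0.12 in Ep400 ko (adjusted p = 0.792). *Oat*, which links ornithine to P5C, was at -0.27 (adjusted p = 0.383) and 0.033 (adjusted p = 0.887). Of 7 tested shuttle and carrier genes, *Slc25a11*, the 2-oxoglutarate/malate carrier, fell in Ep400 ko by 0.47 on the log2 scale (adjusted p = 0.0478, and past the threshold in 1 of 7 fits without 1 library). In Kat5 ko 0 of the 7 passed in edgeR, and 2 were at an unadjusted p under 0.05, as were 22.3% of all genes tested.

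**Figure D4:**
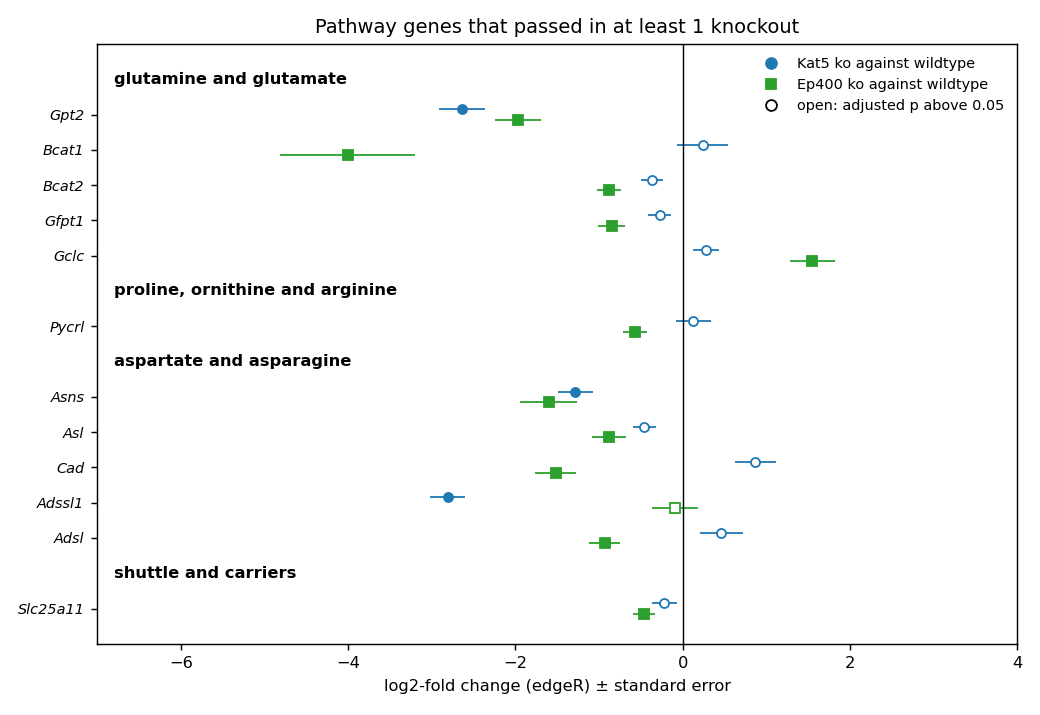
Points are edgeR log2-fold changes, with standard errors as whiskers, of the 12 pathway genes that passed in at least 1 knockout, sorted by list, for Kat5 ko (circles) and Ep400 ko (squares) against wildtype, filled at an adjusted p of 0.05 or less. Filled symbols are 3 in Kat5 ko, all negative (Gpt2, Asns, Adssl1), and 11 in Ep400 ko, of which Gclc alone is positive.

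The genes with the most similar profile over the 10 libraries were named for each of the 5 genes that passed in Ep400 ko, by the root mean square difference in log2 level relative to wildtype among 11361 genes. For *Aldh18a1* these were *Asns* (0.31), *Psph* (0.341) and *Paox* (0.345). *Asns* is thus the closest of all genes searched by this measure, and *Psph* encodes the phosphatase that completes serine synthesis. For *Pycr1* the closest were *Jdp2* (0.323), a transcription factor gene of the AP-1 family, *Map3k13* (0.446) and *Pcyt1b* (0.479). *Prodh* was closest to *Cdk6* (0.406), *Stxbp6* (0.431) and *Fam185a* (0.444). *Glud1* was closest to *Rnf217* (0.166), *Brms1* (0.18) and 2610507B11Rik (0.185), and *Got2* to *Enkd1* (0.117), *Ctdnep1* (0.12) and *Pwwp2a* (0.127). These distances describe the same libraries that gave the fold changes and were not tested.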

How the data were processed

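Per the labels, RNA was extracted with a column kit and TruSeq Stranded mRNA libraries were made. The study's methods name poly-A enrichment, paired-end NovaSeq sequencing and mapping to mm10, and the submitters' processing notes name bcl2fastq 2.20, STAR 2.7.3, DESeq2 1.36.0 and R 4.2.1. The counting program, its strand setting and the annotation are not given in the sources used here. The raw table holds whole-number counts per gene for 10 libraries, as deposited by the authors without normalization. Their size-factor-normalized tables, each for 1 knockout and wildtype, were not used.

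Counts were filtered with filterByExpr, TMM-scaled within each comparison and tested by edgeR's quasi-likelihood test (edgeR 4.0.16, R 4.3.3) with Benjamini-Hochberg adjustment over all genes tested, at a threshold of 0.05. The study used DESeq2, which served as an alternative here (version 1.42.0). A fit of all libraries, other scalings, no filter, a replicate block, chromosome offsets and leaving out each library were the further alternatives. CPM and TPM were computed from the counts. Gene positions and exonic lengths came from an annotation of GRCm38 (mm10), in which 42462 of 43346 gene IDs matched, and promoter sequences from RefSeq (GRCm38.p6), in which all 7 genes matched. Libraries of a group differed by more than counting noise (chi-square over degrees of freedom from 27.3 to 261), so none was a duplicate. This ratio is taken over all genes and was not computed for single genes. The edgeR steps of both comparisons with wildtype were tried on simulated counts, and the other steps were not.

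The genes, lists and tests were chosen with earlier results of these data known. Genes named were the 7 members, both targets, the related Pycrl, Aldh4a1, Oat, Asns and Gpt2, list genes with an adjusted p of 0.05 or less, the 3 nearest profiles (prior count 2 for log2 CPM) of each member that passed, and marker or overlapping genes where a value touched a result. Some genes of the lists are not reported here by name.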

Additional observations from a re-analysis of the deposited data

Results flagged for a closer look

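*Aldh18a1* in WT/3, at 271.81 CPM, stood apart from the other wildtype libraries at 188 to 198 CPM, and so did *Bcat1* in WT/3, at 129.37 CPM against 108 to 112 CPM. Both were picked out because the gap to the next library was a large part of the range of the 4 (Dixon's criterion, which also marks some groups by chance). Without WT/3, *Aldh18a1* in Ep400 ko was at -1.88 with an adjusted p of 0.00682 by edgeR's quasi-likelihood test.

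In 4 pathway genes the knockouts differed from each other in the direct test: *Adssl1* was higher in Ep400 ko than in Kat5 ko by 2.66 on the log2 scale (adjusted p = 0.0203), while *Bcat1* (-4.29, adjusted p = 0.0468), *Cad* (-2.43, adjusted p = 0.0286) and *Adsl* (-1.44, adjusted p = 0.0479) were lower. None of the 4 passed without Kat5/2 or without Kat5/3, with adjusted p from 0.054 to 0.159. Without Kat5/1, all 4 passed the same test, with adjusted p from 0.0182 to 0.0339.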

How the results depend on the processing

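The number of the 7 genes called in Ep400 ko against wildtype, 5 as reported, was 4 to 6 with DESeq2, RLE size factors, library size alone, no filter, a single fit of all libraries, chromosome offsets or robust empirical Bayes (the latter added after seeing the data). It was 3 to 6 when 1 library was left out, with 3 without WT/1. Replicate numbers of the labels did not pair the libraries (correlations of deviations from -0.096 to 0.223), and with the replicate block 1 gene, *Aldh18a1*, was called of 7 and 170 genes overall (0 genes overall in Kat5 ko). *Aldh18a1* in Ep400 ko passed in all 15 alternatives run, *Pycr1* in 14, *Prodh* and *Glud1* in 13 each and *Got2* in 8. *Glul* passed in 3. In Kat5 ko, 0 genes were called as reported, 2 by DESeq2, 2 with no filter and 0 to 2 when 1 library was left out, with 2 without Kat5/1. DESeq2 called 1475 genes overall there, against 67 in edgeR. Leaving out 1 library gave 1 to 2651, the lowest without WT/1. For Ep400 ko against Kat5 ko, 0 were called as reported, 4 by DESeq2, 4 in the single fit, 2 with no filter, 1 with chromosome offsets (*Aldh18a1*) and 0 to 3 when 1 library was left out. Genes called overall there ranged from 4 to 2537 when 1 library was left out, and from 213 with the block to 3539 in the single fit. Of the pathway genes, DESeq2 called 8 in Kat5 ko and 12 between the knockouts, against 3 and 4 in edgeR. Over all genes, DESeq2 called 11.0% and 22.6%, against 0.499% and 7.32% in edgeR. Leaving out 1 library gave 1 to 14 and 0 to 8 pathway genes, to be read against the ranges over all genes above. These alternatives were added after seeing the data. Library size alone put the median of all genes between the knockouts at 0.135, from 0.0063 as reported. Among the 7 genes, directions turned for *Got1* and *Prodh* alone, none of them past the threshold. Leaving out 1 library moved *Got1* from -0.24 to 0.24 in Ep400 ko, from -0.29 to 0.0055 in Kat5 ko and from -0.11 to 0.36 between the knockouts, and *Prodh* in Kat5 ko from -0.25 to 1.07. The turns came without WT/3 (0.073) or Ep400/3 (0.24), without Kat5/1 (0.0055), without Kat5/1 (-0.072) or Ep400/2 (-0.11), and without Kat5/2 (-0.25), in that order. With chromosome offsets, *Got1* was at 0.046 in Kat5 ko and at -0.38 between the knockouts. The cause was not tested.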
